A study of Mus musculus with 36 samples.

Results

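The lungs of WT mice after 48 hr of continuous ozone were compared with those after 24 hr. The comparison rests on 6 of the 36 arrays of the study, 3 from WT mice exposed for 48 hr and 3 from WT mice exposed for 24 hr, chosen by their labels, and on 45037 of the 45101 probe sets of an Affymetrix whole-genome mouse array (a probe set is a group of short probes for 1 transcript), the 64 control probe sets being left out. The study asked how loss of Notch3 or Notch4 alters the response of the lung to ozone, and here the step from 24 to 48 hr in WT mice is described. All mice were male and 7 to 13 weeks old, and the ozone concentration was 0.3 ppm. RNA came from the left lung, and each array is taken here as 1 mouse. The sources describe triplicate arrays and do not say whether RNA was pooled. The WT mice were B6129SF1/J first-generation hybrids. Other groups of 3 mice used beside them were Notch3-/- mice (targeted allele Notch3tm1Grid) and Notch4-/- mice (Notch4tm1Grid) after 24 and 48 hr of ozone, and WT mice in filtered air or after 6 hr of ozone. The knockouts are germline deletions carried by every cell, on a mixed background of the parent strains of the WT hybrids, and the knockout and WT mice were bought as separate strains, so deletion and background cannot be told apart. The labels give no duration for the air group, so ozone duration and time spent in the chamber cannot be told apart in a comparison of 48 with 24 hr.

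Ozone oxidises the lining fluid and surface cells of the airways and of the alveolar ducts, and the epithelium is then repaired by division of surviving cells. Dividing cells copy their DNA in S phase, using helicases, polymerases and enzymes that supply nucleotides, and then separate the chromosomes in mitosis, where cyclin-dependent kinase 1 with its cyclins drives entry, the kinetochores attach the chromosomes to the spindle, and a set of motors and scaffold proteins cuts the cell in 2. Transcripts of the mitotic genes accumulate together late in the cell cycle and are low in resting cells. In whole-lung RNA, more cells of a type and more RNA per cell cannot be told apart.

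Values are log2 levels relative to the median of the same probe set over the 36 arrays, because the deposited table is centred in this way. Differences between mice are unaffected, but brightness and detection cannot be read, so neither the labelled tissue nor the presence of any cell type could be checked against its defining markers, and levels are not compared between genes. Array medians ran from -0.02 to 0.03 in the 48 hr mice and from -0.01 to 0.0031 in the 24 hr mice. Pairs of 48 hr mice differed from each other with an SD of 0.312 to 0.401 across probe sets and pairs of 24 hr mice with an SD of 0.235 to 0.288, and no array was a copy of another. The 3' minus 5' signal of the Gapdh control probe sets, a sign of RNA integrity, was -0.24 to 0.01 in the 48 hr mice and -0.12 to -0.05 in the 24 hr mice. One 24 hr mouse, replicate 3, stood apart in skeletal muscle markers (mean over 14 genes 1.19, against -0.16 and -0.04 in the others and -0.09 to -0.04 in the 48 hr mice), and 48 hr replicate 3 stood apart in collagens (-0.52, against 0.16 and 0.01).

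Genes of cell division were the largest named group among the increases at 48 hr, and the decreases were smaller and mixed. Of 45037 probe sets, 238 differed between 48 and 24 hr at an adjusted p under 0.05 (limma, Benjamini-Hochberg over all probe sets), which is 0.528% of those tested. Higher levels at 48 hr were found for 144 probe sets (0.32%) and lower levels for 94 (0.209%). The rises included 81 of at least 1 log2 unit (2-fold), the falls 9. The median rise was 1.14 and the median fall -0.68, against a median of 0.01 over all probe sets. The rises named 105 genes and the falls 83, with 13 and 8 probe sets that have no single gene symbol. Of the 105 genes that rose, 33 belong to a list of 42 mitosis genes and 9 to a list of 39 DNA replication genes, while 63 belong to neither. The lists do not hold every gene of cell division, and the 63 include Cep55, a scaffold of the final cut between daughter cells. In all 238 probe sets the 3 values at 48 hr lay on one side of the 3 values at 24 hr, as they did for 9.87% of all probe sets upward and 9.37% downward. At an unadjusted p under 0.05, 5717 probe sets passed (12.7%).

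These counts depended on single mice. Leaving out 48 hr replicate 1, 2 or 3 gave 62, 53 and 78 rises and 76, 65 and 5 falls, and leaving out 24 hr replicate 1, 2 or 3 gave 14, 56 and 92 rises and 6, 20 and 30 falls. Of the 94 falls, 5 passed without 48 hr replicate 3, 5 without 24 hr replicate 1 and 18 without 24 hr replicate 2. The 48 hr replicate 3 was the lowest of its group in 79 of the 94. Normalizing the arrays once more by quantiles gave 88 rises and 102 falls, so that 46.3% of the calls were rises against 60.5% with the values as deposited.

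**Figure D1:**
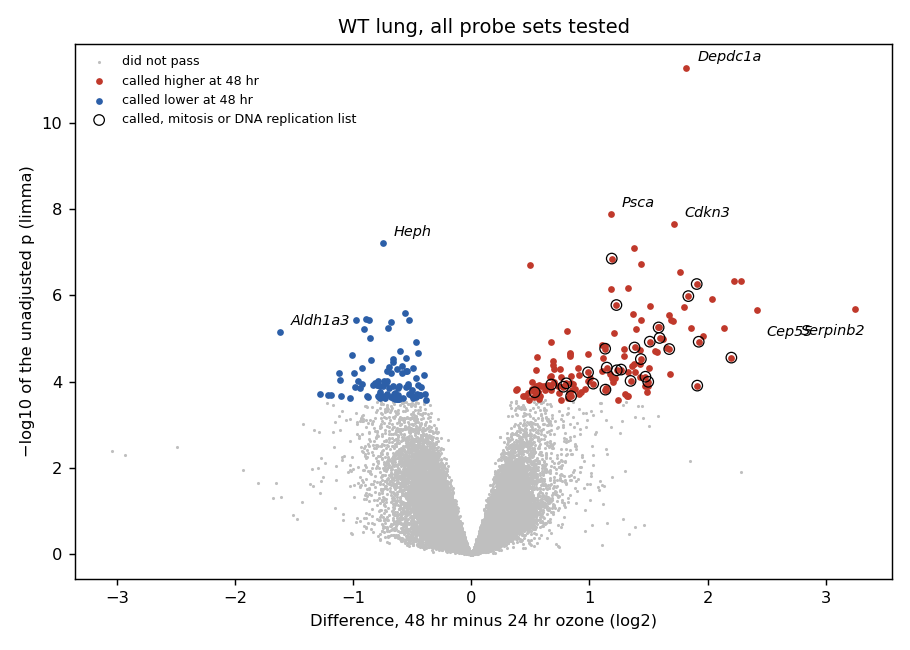
Difference between 48 and 24 hr of ozone in WT lung (horizontal axis, log2) against −log10 of the unadjusted p from limma (vertical axis) for 45037 probe sets. The 144 red points passed as higher at 48 hr and the 94 blue points as lower, open circles mark called members of the mitosis and DNA replication lists (1 probe set per gene), and Serpinb2 (3.25) lies farthest to the right.

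Of 60 gene lists examined, the mitosis genes had the largest median difference. The lists and their members were chosen with earlier results of these data known, so their counts are a description and no independent test. The list comprised 42 genes, of which 41 were measured, each by 1 probe set chosen for specificity. Of these, 22 rose and 0 fell (also 0 at an unadjusted p under 0.05), with a median difference of 1.23, whereas over 18193 genes 75 rose (0.412%) and 35 fell (0.192%) with a median of 0.01. In 34 of the 41 the groups did not overlap and 48 hr was higher, as for 10.7% of all genes, and in 0 the 48 hr mice were lower without overlap, as for 9.95% of all genes. With any probe set of the gene counted, 33 of the list rose. The mean over the list was 1.06, 1.02 and 0.67 in the 48 hr mice, against -0.29, -0.09 and -0.04 in the 24 hr mice. Every 48 hr mouse was above every 24 hr mouse, and 48 hr replicate 3 was the lowest of its group. The same mean was -0.52, -0.53 and -0.19 after 6 hr and -0.72, -0.22 and -0.18 in air, so the 24 hr mice had values in or just above the range of the 6 hr and air mice. Without 48 hr replicate 1, 2 or 3, the number of members called higher was 8, 10 and 17, and without 24 hr replicate 1, 2 or 3 it was 3, 10 and 13. Replicate 1 of the 24 hr mice had the lowest mean of its group.

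Cdk1, the kinase of mitotic entry, and the cyclins Ccnb2 and Ccna2 rose. Ccnb1, another cyclin that activates Cdk1, was the member of the list that no probe set named here measures. Cyclin B2 (Ccnb2), which also activates Cdk1 at the start of mitosis, was at 1.57, 1.78 and 1.34 in the 48 hr mice, against -0.51, -0.13 and -0.19 in the 24 hr mice. The difference was 1.84 (SE 0.30, adjusted p = 0.0031), a 3.57-fold increase, and it passed with each mouse left out in turn. Cdk1 itself was at 1.76, 1.68 and 1.54 in the 48 hr mice, against -0.70, -0.15 and 0.06 in the 24 hr mice (difference 1.93, SE 0.36, adjusted p = 0.011). Cyclin A2 (Ccna2), needed in S phase and at mitotic entry, rose by 1.80, and Cdca3, which promotes the removal of the Cdk1 inhibitor Wee1, by 1.71. Cdkn3, a phosphatase that acts on cyclin-dependent kinases, was at 1.49, 1.84 and 1.62 in the 48 hr mice, against -0.02, -0.02 and -0.16 in the 24 hr mice (difference 1.72, adjusted p = 0.00034).

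The promoters of many of these genes carry a shared pair of short sequences. The mitotic genes are known to be kept silent in resting cells through the cell cycle genes homology region (CHR, TTTGAA), and CCAAT boxes often lie upstream of it. Promoter windows from 250 bases before to 50 after the start of transcription were taken from RefSeq (GRCm38.p6), and both strands were searched, where adjoining motifs can share 1 end letter. Of 41 measured mitosis genes, 35 had a window, 37 windows in all. TTTGAA was present in 75.7% of them, against 17.9% of 32851 windows of all genes, CCAAT in 78.4% against 37.4%, and both in 67.6% against 6.95%. Among the mitosis genes called higher on the chosen probe set, both were present in 57.9% of 19 windows. Over all genes called higher, both were present in 37.8% of 90 windows, and over all genes called lower in 1.18% of 85. The match is a description of the letters and does not locate a binding site. The 4 windows below are from mitosis genes that rose by 1.38 to 1.93, and were chosen among those that hold both motifs. They are printed 5′ to 3′ on the strand of the gene, with TTTGAA and CCAAT, or their complements TTCAAA and ATTGG, in capitals. In the Ccnb2 window, 1 of the TTTGAA matches lies just after the start of transcription and follows 3 CCAAT matches.
Ccnb2, chr9:70421505-70421804, minus strand: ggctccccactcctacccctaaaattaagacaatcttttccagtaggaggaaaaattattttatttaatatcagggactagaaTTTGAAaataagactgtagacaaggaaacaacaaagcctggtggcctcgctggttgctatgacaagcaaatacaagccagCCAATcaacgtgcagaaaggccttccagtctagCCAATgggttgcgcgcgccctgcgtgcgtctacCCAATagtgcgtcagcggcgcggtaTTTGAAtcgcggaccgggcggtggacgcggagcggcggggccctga
Cdk1, chr10:69352863-69353162, minus strand: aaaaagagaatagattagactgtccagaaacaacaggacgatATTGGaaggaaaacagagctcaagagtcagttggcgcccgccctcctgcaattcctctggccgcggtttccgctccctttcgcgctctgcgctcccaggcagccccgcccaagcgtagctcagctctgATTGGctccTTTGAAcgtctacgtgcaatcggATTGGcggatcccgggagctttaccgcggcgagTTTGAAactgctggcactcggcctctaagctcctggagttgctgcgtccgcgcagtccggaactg
Cdc20, chr4:118437294-118437593, minus strand: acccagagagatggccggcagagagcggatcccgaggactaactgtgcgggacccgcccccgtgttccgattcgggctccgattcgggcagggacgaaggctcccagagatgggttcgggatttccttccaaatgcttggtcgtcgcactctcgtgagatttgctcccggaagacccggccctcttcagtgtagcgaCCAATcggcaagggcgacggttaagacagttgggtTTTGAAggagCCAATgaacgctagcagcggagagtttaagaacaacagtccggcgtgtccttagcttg
Aurka, chr2:172370521-172370820, minus strand: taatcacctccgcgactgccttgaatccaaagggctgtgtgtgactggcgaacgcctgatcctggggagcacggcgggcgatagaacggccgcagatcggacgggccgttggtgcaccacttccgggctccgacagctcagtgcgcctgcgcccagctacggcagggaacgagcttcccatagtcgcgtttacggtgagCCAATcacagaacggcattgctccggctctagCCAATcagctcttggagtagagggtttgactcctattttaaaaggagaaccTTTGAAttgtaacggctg

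Genes of the kinetochore and the spindle checkpoint, which hold back chromosome separation until all chromosomes are attached, rose as well. Mad2l1, which keeps the anaphase-promoting complex inactive, was at 0.97, 1.05 and 1.01 in the 48 hr mice, against -0.32, -0.07 and -0.15 in the 24 hr mice (difference 1.19, SE 0.17, adjusted p = 0.0011). Cdc20, the activator on which Mad2l1 acts, was at 1.12, 1.10 and 1.0 in the 48 hr mice, against -0.46, -0.27 and -0.20 in the 24 hr mice (difference 1.38, adjusted p = 0.014). The checkpoint kinase Bub1 rose by 1.51, the kinetochore subunits Nuf2 and Ndc80 by 1.59 and 0.99, and the kinetochore protein Ska1, which was chosen after its values were seen, by 1.38 (adjusted p = 0.0007). The mitotic kinases Aurka and Plk1 rose by 1.44 and 1.23. Replicate 3 had the lowest 48 hr value of both kinases (0.96 for Aurka and 0.66 for Plk1, against 1.55 or more and 1.46 or more in the other 48 hr mice). Cdc20, Bub1, Ndc80, Aurka and Plk1 were named outside the rules for naming genes given below.

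Several of the largest increases were of genes that act late, in spindle formation and in the cut between daughter cells. Cep55, a scaffold of the final cut, was at 2.25, 2.09 and 1.97 in the 48 hr mice, against -0.96, -0.0027 and 0.0027 in the 24 hr mice. The difference was 2.42 (SE 0.41, adjusted p = 0.0048), a 5.36-fold increase, and a second Cep55 probe set rose by 0.67. Birc5 (survivin), a subunit of the chromosomal passenger complex, was at 2.07, 1.90 and 1.82 in the 48 hr mice, against -0.76, 0.11 and -0.16 in the 24 hr mice (difference 2.20, SE 0.44, adjusted p = 0.017). In both, the 24 hr mice differed more among themselves than the 48 hr mice. Cdca8, of the same complex as Birc5, rose by 1.68. The motor Kif20a and the microtubule bundler Prc1, both of the central spindle, rose by 1.91 and 1.76 (adjusted p = 0.002 and 0.0014), the midbody protein Shcbp1 by 2.04 and the chromosome motor Kif22 by 1.69. Hmmr, a spindle protein, rose by 1.96 on its most changed probe set and the mitotic kinase Pbk by 1.91. Apart from these late genes, Cip2a, an inhibitor of protein phosphatase 2A, rose by 1.67 and Esco2, which acetylates cohesin, by 1.62.

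The smallest p of the comparison belonged to Depdc1a, a gene of mitotic progression. It was at 1.61, 1.60 and 1.57 in the 48 hr mice, against -0.37, -0.07 and -0.24 in the 24 hr mice (difference 1.82, SE 0.16, adjusted p = 2.5e-07). The 48 hr values spanned less than 0.1 log2, and the 24 hr values lay among those after 6 hr (-0.23, -0.52 and 0.00) and in air (-0.30, -0.12 and -0.22). The effect of leaving out single mice was followed for 70 probe sets that passed. The 70 hold some genes not named here, and not those of Cdc20, Bub1, Ndc80, Aurka, Plk1, Rrm1 and Rrm2. Of the 70, 10 passed with any 1 of the 6 mice left out, and 10 passed in none of the 6 fits. The former were those of Depdc1a, Kif20a, Ccnb2, Prc1, Cdkn3, Ska1, Mad2l1, Psca, Anxa1 and Heph. The latter included those of Pbk, Rfc4, Prim1, Krt19, Clec7a, Lgals1, Pde4d and Thsd7a. Several more passed in only 1 of the 6 fits, among them those of Tlr2, Has2, Nfe2l2, Thbs3, Dusp8 and Hecw2. Without 24 hr replicate 1, 57 of the 70 no longer passed, and without 48 hr replicate 3, 43. No direction turned among the 70.

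**Figure D2:**
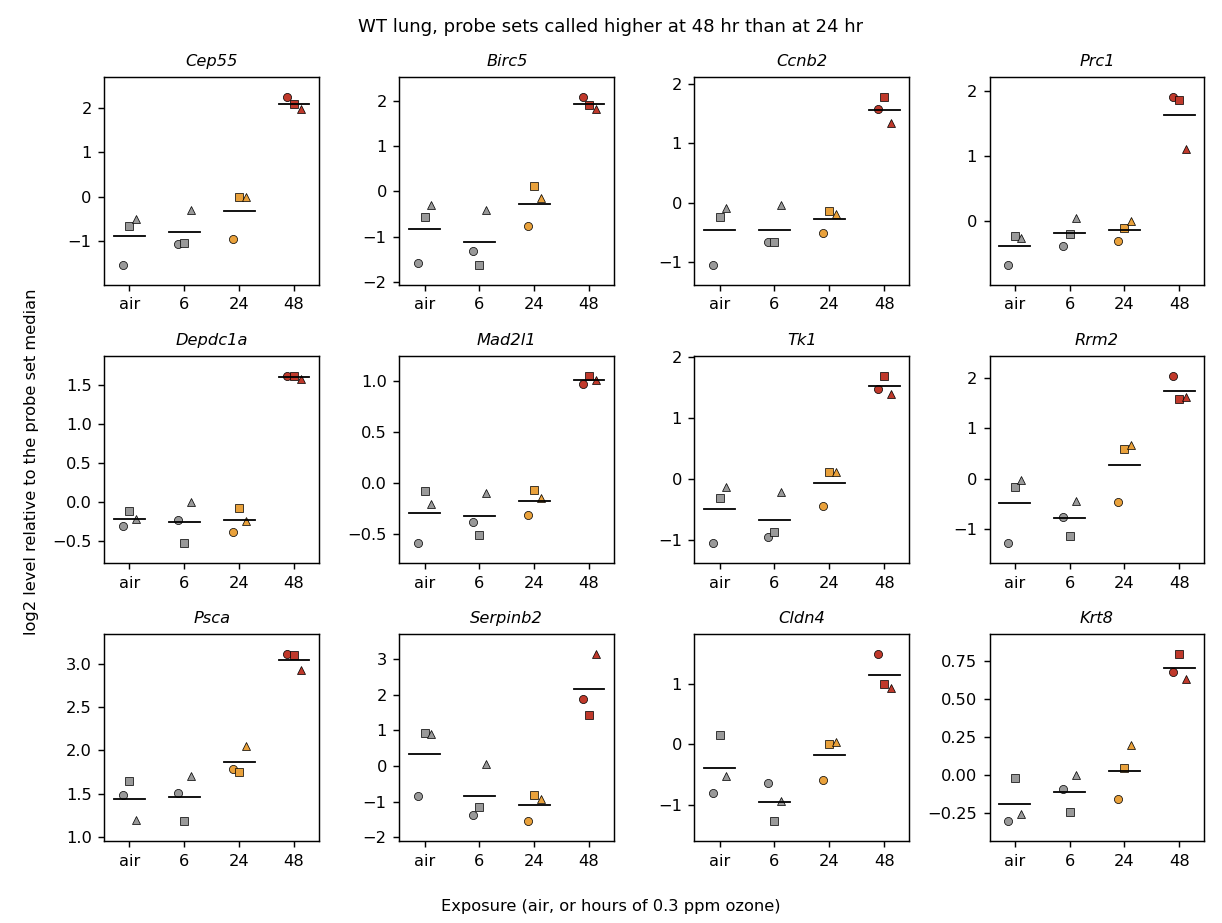
Levels of 12 genes called higher at 48 hr in the individual WT mice (symbols mark replicates 1 to 3, lines are group means of 3 mice) in air and after 6, 24 and 48 hr of ozone, with the log2 level relative to the probe set median on the vertical axis of each panel, which differs between panels. In all 12 panels the 48 hr mice lie above the 24 hr mice, and Depdc1a is between 1.57 and 1.61 in the 48 hr mice, against -0.37 to -0.07 in the 24 hr mice.

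Not every member of the mitosis list passed. Mki67, the proliferation antigen Ki-67, was at 2.07, 1.63 and 0.92 in the 48 hr mice, against -0.22, 0.31 and 0.37 in the 24 hr mice, without overlap, but with a difference of 1.39 (SE 0.36) its adjusted p was 0.074. For several others the probe set chosen for specificity and another of the same gene disagreed. Hmmr gave -0.01 on that probe set and 1.96 on the one above, Cdca3 gave 0.09 and 1.71, and Top2a, the topoisomerase that untangles chromosomes, gave -0.07, 0.21 and 1.26 on its 3 probe sets, none of which passed. Of the 105 genes called higher, 68 had several probe sets, and in 53 of these all probe sets were higher at 48 hr. In 24 of the 68, 2 or more probe sets passed. Of the 83 genes called lower, 71 had several probe sets, and in 52 of these all were lower. In only 2 of the 71 did 2 or more probe sets pass, so most decreases rest on 1 probe set. No gene had probe sets that passed in opposite directions.

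DNA replication genes formed the next group. Of 36 measured genes 6 rose, against 0.412% of all genes, and 0 fell, against 0.192%. At an unadjusted p under 0.05 also 0 fell, against 7.21%. The median was 0.50, and 9 rose when any probe set counted. Thymidine kinase 1 (Tk1), which salvages thymidine for DNA synthesis, was at 1.48, 1.70 and 1.40 in the 48 hr mice, against -0.44, 0.12 and 0.11 in the 24 hr mice (difference 1.59, SE 0.30, adjusted p = 0.0099). The recombination factor Rad51ap1 rose by 1.13, the origin licensing factor Cdc6 by 1.03, the clamp loader subunit Rfc4 by 0.80, primase (Prim1) by 0.68 and ribonucleotide reductase subunit Rrm1 by 0.54. Rrm2, the other subunit, gave 1.02 on its chosen probe set (adjusted p = 0.14) and 1.49 and 1.39 on others that passed. Rrm1 and Rrm2 were named outside the rules for naming genes given below. Mean levels over the list were 0.64, 0.54 and 0.33 in the 48 hr mice, against -0.26, 0.05 and 0.12 in the 24 hr mice, without overlap. Without 48 hr replicate 1, 2 or 3, the number of members called higher was 2, 2 and 1, and without 24 hr replicate 1, 2 or 3 it was 0, 2 and 4.

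Some epithelial genes formed a second group of increases. Of 29 measured genes of the cornified envelope and of squamous repair, 5 rose and 0 fell (median 0.11), against 0.412% and 0.192% of all genes. Of these, Cldn4, Krt8 and Krt19 also belong to a list of 14 measured markers of regenerating and transitional epithelium. In that list 3 rose and 0 fell (median 0.11), against the same shares, while 7 of the 14 had a difference above 0 and 7 below 0. Claudin 4 (Cldn4), a tight junction protein, was at 1.49, 1.0 and 0.93 in the 48 hr mice, against -0.58, -0.0031 and 0.04 in the 24 hr mice (difference 1.32, SE 0.28, adjusted p = 0.027). S100a14, a calcium-binding protein of epithelia, was at 1.41, 1.22 and 1.38 in the 48 hr mice, against -0.26, 0.15 and 0.24 in the 24 hr mice (difference 1.29, adjusted p = 0.014). The keratin pair of simple epithelium rose by similar amounts, Krt8 by 0.67 on each of its called probe sets and Krt18 by 0.75, and Krt19 rose by 0.65. The keratins of basal and hyperplastic epithelium gave values near 0, with 0.00 for Krt14, 0.12 for Krt5 and 0.25 for Krt6a. Sprr1a, a cornified envelope precursor, was at 1.62, 1.78 and 1.14 in the 48 hr mice, against -0.43, 0.74 and 0.67 in the 24 hr mice (difference 1.19, SE 0.46, adjusted p = 0.26). The calls of Cldn4, Krt8 and Krt18 held only when 24 hr replicate 3 was the mouse left out, and that of Krt19 in none of the 6 fits (adjusted p up to 0.25).

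The largest increase of all was that of Serpinb2, the plasminogen activator inhibitor PAI-2. It was at 1.89, 1.43 and 3.14 in the 48 hr mice, against -1.55, -0.80 and -0.94 in the 24 hr mice (difference 3.25, SE 0.55, adjusted p = 0.0048), a 9.52-fold increase. Its values after 6 hr were -1.38, -1.16 and 0.04 and in air -0.84, 0.93 and 0.88, so part of the step came from 24 hr values below those of 2 of the air mice. Without 24 hr replicate 1 the difference was 2.76 with an adjusted p of 0.06. Prostate stem cell antigen (Psca), a surface protein of epithelia that was chosen after its values were seen, had the second smallest p. It was at 3.11, 3.10 and 2.92 in the 48 hr mice, against 1.79, 1.75 and 2.05 in the 24 hr mice (difference 1.18, SE 0.15, adjusted p = 0.00029).

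Genes of leukocytes and of inflammation had few calls. In the list of TNF, IL-1 and NF-kB genes, Tlr2, the receptor for bacterial lipoproteins, was at 0.55, 0.72 and 0.70 in the 48 hr mice, against -0.27, 0.02 and 0.13 in the 24 hr mice (difference 0.70, adjusted p = 0.035), and none of the other 33 measured members passed. Outside the lists, and chosen after their values were seen, the myeloid lectin receptors Clec7a (dectin-1) and Clec4a2 rose by 0.97 and 0.84 and Has2, a hyaluronan synthase, by 0.84. Of the genes below, Anxa1, Lgals1, Nfe2l2 and Krtap17-1 were likewise chosen after their values were seen. Annexin A1 (Anxa1), known for limiting inflammation, was at 0.42, 0.34 and 0.45 in the 48 hr mice, against -0.13, -0.06 and -0.10 in the 24 hr mice (difference 0.50, SE 0.07, adjusted p = 0.0011). The change was small but larger than the spread in either group. Galectin 1 (Lgals1) rose by 0.53 and 0.56 on a pair of probe sets. One probe set of Nfe2l2, which encodes NRF2, the transcription factor of the antioxidant response, rose by 1.30 (adjusted p = 0.044), but the other gave -0.09, and none of 32 measured NRF2 target genes passed (median 0.02). Krtap17-1, a keratin-associated protein gene, was at -0.18, 0.32 and 0.08 in the 48 hr mice, against -1.45, -1.21 and -1.23 in the 24 hr mice (difference 1.37, adjusted p = 0.0054), and its 6 hr and air values (0.23 to 0.57 and 0.01 to 0.74) overlapped those at 48 hr.

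The decreases were spread over genes of the matrix, of signalling and of transcription, and only 9 reached 1 log2. The largest was that of Aldh1a3, an enzyme of retinoic acid synthesis, which was at -0.04, -0.02 and -0.38 in the 48 hr mice, against 0.58, 1.86 and 1.98 in the 24 hr mice (difference -1.62, SE 0.29, adjusted p = 0.0079). After 6 hr it was at 0.13, -0.25 and -0.29 and in air at -0.40, -0.26 and -0.40, so its level stood high at 24 hr alone. Its other probe sets gave -0.43 and -0.42 and did not pass. Without 24 hr replicate 2, the adjusted p of the first was above the threshold, as it was without 24 hr replicate 3 or 48 hr replicate 3 (0.066 at most).

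Several of the decreases were of genes for matrix proteins, a grouping made after the values were seen. None of 25 measured genes on the list of collagens and fibrillar matrix passed. Thrombospondin 3 (Thbs3), an adhesive matrix glycoprotein, was at -0.92, -0.99 and -1.30 in the 48 hr mice, against 0.12, -0.19 and -0.16 in the 24 hr mice (difference -0.99, SE 0.21, adjusted p = 0.027). In air its values were 0.83, 0.87 and 0.84, so that Thbs3 stepped down at 24 hr and again at 48 hr. Ecm2, a matrix protein, was at -0.98, -0.92 and -0.98 in the 48 hr mice, against 0.00, 0.13 and -0.29 in the 24 hr mice (difference -0.91, adjusted p = 0.0069). Of the 2 probe sets of Ecm2, only this 1 was lower at 48 hr. The fibulins Fbln1 and Fbln5, of basement membranes and elastic fibres and both chosen after their values were seen, fell by 0.85 and 0.66, the collagen-binding proteoglycan Fmod by 0.89, the basement membrane collagen Col4a4 by 1.03, the secreted ADAMTS-like protein Adamtsl1 by 1.19 and Thsd7a, a membrane protein with thrombospondin repeats, by 0.95. For Fmod and Adamtsl1 the low value of 48 hr replicate 3 stood apart (-1.19 and -1.53, against -0.24 or more and -0.49 or more in the other 48 hr mice), and in that mouse the collagen list was low too. Whether the matrix content of that sample plays a part was not tested.

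Other decreases were of genes of signalling and transport, again grouped after the values were seen. The mechanically gated channel Piezo2 fell by 1.12, the cyclic AMP phosphodiesterases Pde4b and Pde4d by 0.99 and 0.96, the phosphatase Dusp8, which acts on stress kinases, by 1.22, and the ubiquitin ligases Hecw2 and Nedd4l by 1.28 and 1.10. Of the 2 probe sets of Pde4d, only the 1 that passed was lower at 48 hr. Abca1, which exports cholesterol, was at -0.24, -0.40 and -0.39 in the 48 hr mice, against 0.65, 0.49 and 0.40 in the 24 hr mice (difference -0.86, SE 0.16, adjusted p = 0.01), while its other probe sets gave -0.30 and -0.36 and did not pass. Hephaestin (Heph), a ferroxidase of iron export, was at -0.20, -0.24 and -0.46 in the 48 hr mice, against 0.55, 0.49 and 0.30 in the 24 hr mice (difference -0.75, SE 0.10, adjusted p = 0.00068). Heph had the smallest p of all decreases and passed with any 1 mouse left out, which no other named decrease did.

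Transcription factors with lower levels included Dach1, a regulator of organ development, at -0.38, -0.39 and -0.79 in the 48 hr mice, against 0.28, 0.42 and 0.68 in the 24 hr mice (difference -0.98, SE 0.17, adjusted p = 0.0057). Bcl11b, which maintains the T cell lineage, fell by 0.89, with 48 hr values of 0.02, -0.44 and -0.65, against 0.36, 0.72 and 0.53 in the 24 hr mice, and Eomes, a factor of cytotoxic lymphocytes chosen after its values were seen, by 0.74. Beside these, none of 17 measured T cell markers passed (median -0.21), and 13 of 17 were below 0, against 8608 of 18193 genes in all. Their mean level was -0.10, -0.28 and 0.04 in the 48 hr mice, against 0.06, 0.15 and 0.21 in the 24 hr mice. Of the NK cell markers, which hold Eomes on another probe set (-0.29), all 12 had a difference below 0, against the same share, and none passed. The part of lymphocyte number in these decreases was not tested. Klf11, the homeobox gene Pknox2 and Tsc22d2 fell by 0.93, 0.93 and 0.87, and Nckap5 by 0.87.

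Genes called lower were long. Their genomic span in RefSeq (GRCm38.p6) had a median of 93.7 kb (quartiles 45.8 and 241 kb, 83 genes), whereas genes called higher had a median of 16.2 kb (8.0 and 30.8 kb, 105 genes) and all measured genes with a known span 20.3 kb (7.9 and 50.5 kb). No test was made of this difference. The 3' minus 5' signal of Actb was -0.28, 0.0029 and -0.08 in the 48 hr mice, against -0.20, -0.14 and -0.15 in the 24 hr mice, with overlap.

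**Figure D3:**
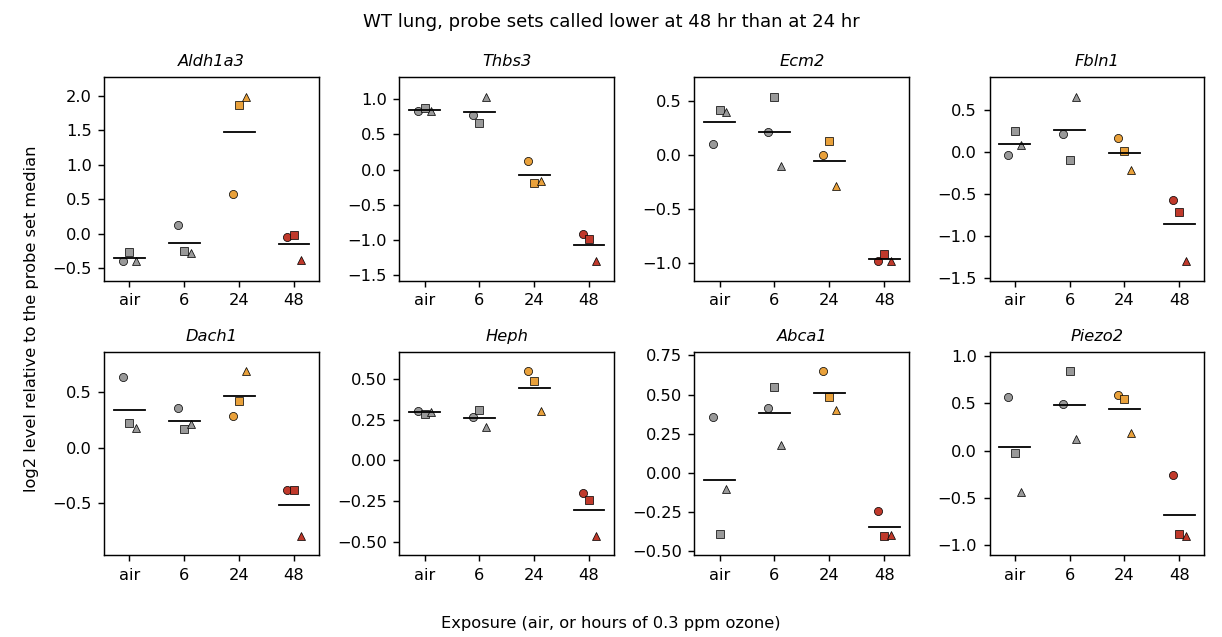
Levels of 8 genes called lower at 48 hr in the individual WT mice (symbols mark replicates 1 to 3, lines are means of 3 mice) in air and after 6, 24 and 48 hr of ozone, as log2 level relative to the probe set median, with a separate vertical axis in each panel. Aldh1a3 is high at 24 hr alone, at 0.58 to 1.98, while Thbs3 lies at -1.30 to -0.92 in the 48 hr mice and 0.83 to 0.87 in the air mice.

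Of 60 gene lists, 33 of pathways and 27 of cell type markers, 54 had no member that passed on its chosen probe set. Serpinb2 and Thbs3 were the only calls among 28 matrix proteases and inhibitors. The glucocorticoid responsive genes had the lowest median of the pathway lists, -0.54. In all 17 of 20 were below 0 (8608 of 18193 over all genes), and 9 were below 0 at an unadjusted p under 0.05 (7.21% of all genes). Zbtb16, a transcription factor induced by glucocorticoids, was at -0.11, -0.56 and -0.61 in the 48 hr mice, against 2.21, 1.08 and 0.86 in the 24 hr mice (difference -1.81, SE 0.75, adjusted p = 0.29). Pdk4, which restrains glucose oxidation, was at -1.64, -0.95 and -1.52 in the 48 hr mice, against 0.47, 0.47 and -0.08 in the 24 hr mice (difference -1.66, SE 0.69, adjusted p = 0.3). In both the groups did not overlap (as in 9.95% of all genes downward), while the spread estimated over all 12 groups was wide. Collagens and fibrillar matrix genes had a median of -0.34 with 8 of 25 below 0 at an unadjusted p under 0.05, but their mean was 0.16, 0.01 and -0.52 in the 48 hr mice, against 0.10, 0.30 and 0.12 in the 24 hr mice, so that 1 mouse of the 48 hr group lay apart. Cholesterol synthesis genes had a median of 0.24 with 7 of 20 above 0 at an unadjusted p under 0.05 (6.65% of all genes), among them Sqle at 0.35 and Cyp51 at 0.42.

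Among the markers of lung cell types, endothelial markers had a median of -0.29 with 19 of 20 below 0, against 8608 of 18193 genes in all, and 8 of 20 at an unadjusted p under 0.05, against 7.21% of all genes, including Cdh5 (VE-cadherin) at -0.79 and Emcn at -0.64, and none passed after adjustment. Their mean level was 0.08, -0.01 and -0.16 in the 48 hr mice, against 0.32, 0.23 and 0.31 in the 24 hr mice, without overlap. Alveolar type 1 markers had a median of -0.22 (6 of 15 at an unadjusted p under 0.05, against the same 7.21%), alveolar type 2 markers -0.08, club cell markers 0.06 and ciliated cell markers 0.15. Neutrophil markers had a median of 0.20 and alveolar and interstitial macrophage markers 0.24. The neutrophil mean was -0.53, -0.38 and 0.04 in the 48 hr mice, against -0.66, -0.59 and -0.34 in the 24 hr mice, with overlap. The lectin receptor Clec4e, a member of that list, gave 0.98 (adjusted p = 0.078). The acute phase list, a set of secreted proteins of the injury response, had a median of -0.09 and 0 calls.

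**Figure D4:**
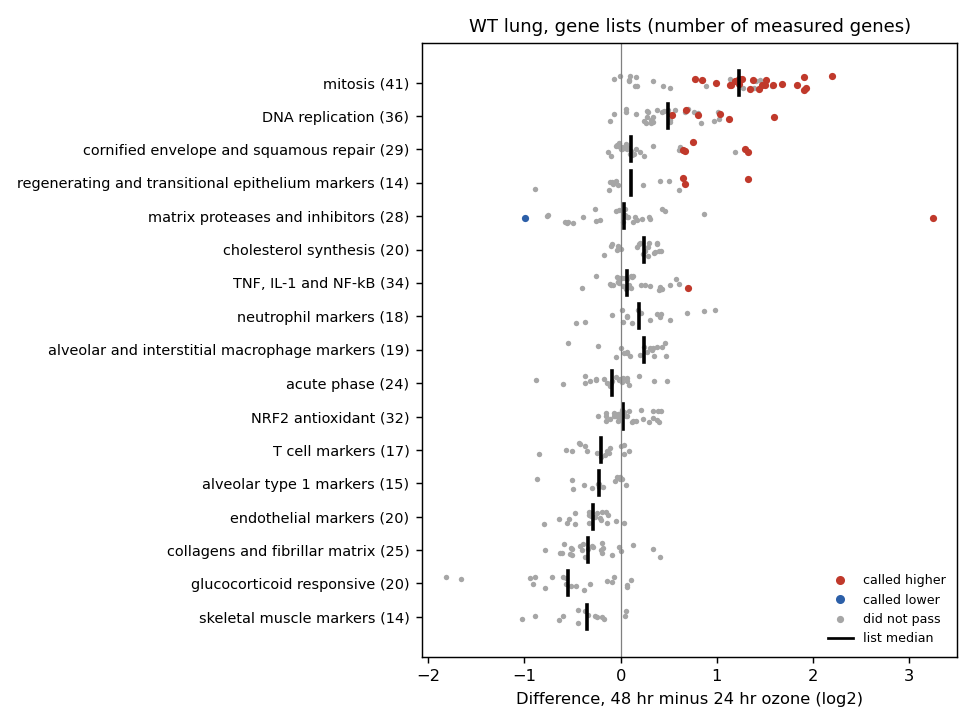
Difference between 48 and 24 hr of ozone (horizontal axis, log2) for the measured members of 17 gene lists in WT lung, 1 point per gene on its chosen probe set, with the list median as a black bar and called members in red (higher) or blue (lower). The mitosis list (41 genes, median 1.23) lies farthest to the right, and the glucocorticoid responsive list (20 genes, median -0.54) has the lowest median of those drawn.

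None of the genes below, which the text of the study names, passed between 24 and 48 hr in WT mice. Others that it names, such as Trim12a and Trim5, are not described here. The neutrophil chemokine Cxcl1 was at 0.11, 0.80 and 0.72 in the 48 hr mice, against 1.20, 1.21 and 0.98 in the 24 hr mice (difference -0.59, SE 0.36, adjusted p = 0.53), and Cxcl2 gave 0.21. The cytokines Tnf and Il33 gave 0.13 and 0.42, and Socs3, a feedback inhibitor of cytokine receptors, 0.09. The adaptor Myd88 gave 0.06, Traf6 0.08, the T cell kinase Zap70 -0.21 and Trim30a -0.08. Among the receptors, Notch1 gave -0.66, Notch2 -0.0045, Notch3 -0.46 and Notch4 -0.02. The ligand Dll1 was at -0.26, -0.36 and -0.79 in the 48 hr mice, against 1.37, -0.18 and 0.90 in the 24 hr mice, without overlap (difference -1.17, SE 0.36, adjusted p = 0.15). The ligands Jag1 and Jag2 gave -0.15 and -0.18, and Hes1, a target of Notch signalling, 0.31. The signs of Myd88, Trim30a, Notch2, Notch4 and Jag1 turned when single mice were left out.

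Set beside the WT air mice, the increases mostly had 48 hr levels above air. These comparisons share the ozone mice with the one above, by which the probe sets were chosen. For the increases, high values at 48 hr and low values at 24 hr are therefore partly built in. The same holds in reverse for the decreases. The shares over all probe sets had no such choice, so the values are given side by side only and no conclusion is drawn from them. Of the 144 probe sets called higher, 126 also passed as higher at 48 hr against air, where 1.39% of all probe sets did, and 1 passed at 24 hr against air, where 0.104% passed in either direction. Their median difference from air was 1.32 at 48 hr and 0.17 at 24 hr. For Ccnb2 the differences from air were 2.02 at 48 hr (adjusted p = 0.00016) and 0.18 at 24 hr (adjusted p = 0.86), and for Psca 1.60 (adjusted p = 4.6e-07) and 0.42 (adjusted p = 0.44). The decreases were less uniform. Of the 94, 49 passed as lower at 48 hr against air (0.495% of all), 92 had a 48 hr mean below the air mean, and 73 had a 24 hr mean above it.

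The same comparison was made within the other genotypes. The 3 comparisons share no array, so the knockout mice had no part in the WT differences, but they did contribute to the estimate of the spread by which the WT probe sets passed. With the 12 WT arrays alone, 74 of the 144 rises and 15 of the 94 falls passed. Of the 144 probe sets called higher in WT mice, 140 had a positive difference in Notch3-/- mice, against 58.5% of all probe sets, and 99 passed there as higher, against 0.664% of all. In Notch4-/- mice 143 had a positive difference, against 49.6% of all, and 119 passed as higher, against 2.07%. The median difference was 1.14 in each of the 3 genotypes. The mean over these probe sets was 0.80, 1.03 and 1.25 in the 48 hr Notch3-/- mice, against -0.22, -0.29 and 0.13 in the 24 hr Notch3-/- mice. It was 1.28, 1.02 and 1.19 in the 48 hr Notch4-/- mice, against -0.02, 0.18 and 0.03 in the 24 hr Notch4-/- mice. Neither pair of groups overlapped. Ccnb2 differed by 1.88 and 2.06 in Notch3-/- and Notch4-/- mice, and Depdc1a by 1.79 and 1.92. The mitosis list had medians of 1.57 and 1.13 in these genotypes, with 33 and 27 of 41 members higher. Over all 18193 genes the medians were 0.059 and 0.0087, and 157 and 509 genes passed as higher.

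Some WT increases had smaller values in the knockouts. Psca gave 0.19 in Notch3-/- and 0.16 in Notch4-/- mice (adjusted p = 0.61 and 0.6), against 1.18 in WT mice, yet the difference from WT did not pass (-1.0, adjusted p = 0.15, for Notch3-/- and -1.02, adjusted p = 1.0, for Notch4-/-, SE 0.21 each). Serpinb2 gave 0.64 in Notch3-/- and 2.30 in Notch4-/- mice, against 3.25 in WT mice, and the difference from WT did not pass (-2.61, SE 0.77, adjusted p = 0.22, for Notch3-/-).

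Of the 94 probe sets called lower in WT mice, 91 had a negative difference in Notch4-/- mice, against 50.4% of all probe sets, and 59 passed there as lower, against 2.81%. In Notch3-/- mice 37 had a negative difference, against 41.5% of all, and 1 passed as lower, against 0.135%. Their median difference was 0.05 in Notch3-/-, -0.56 in Notch4-/- and -0.68 in WT mice. The mean over these probe sets was -0.04, -0.08 and -0.28 in the 48 hr Notch3-/- mice, against -0.0064, -0.13 and -0.26 in the 24 hr Notch3-/- mice, with overlap. It was -0.50, -0.64 and -0.39 in the 48 hr Notch4-/- mice, against -0.0055, 0.09 and 0.14 in the 24 hr Notch4-/- mice, and -0.28, -0.35 and -0.66 in the 48 hr WT mice, against 0.32, 0.26 and 0.28 in the 24 hr WT mice, both without overlap. Aldh1a3 fell in all genotypes, by 1.60 in Notch3-/-, 1.67 in Notch4-/- and 1.62 in WT mice. Tested directly, the change from 24 to 48 hr differed between Notch3-/- and WT mice for 4 probe sets (0.00888% of all, 5899 at an unadjusted p under 0.05), 2 of them among the 94, and this count ran from 0 without WT 48 hr replicate 3 to 83 without WT 48 hr replicate 2. Between Notch4-/- and WT mice it differed for 0 probe sets by limma (1427 at an unadjusted p under 0.05).

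**Figure D5:**
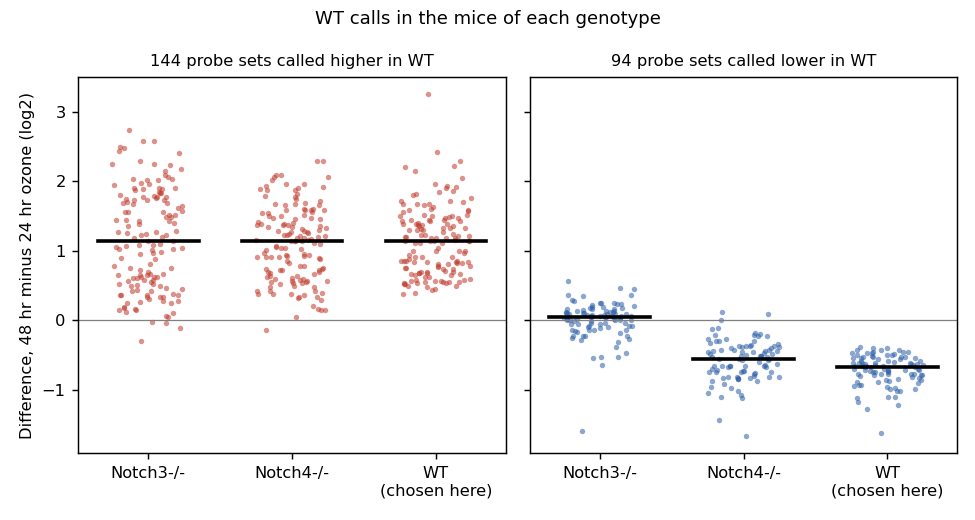
Difference between 48 and 24 hr of ozone (vertical axis, log2) in Notch3-/-, Notch4-/- and WT mice for the 144 probe sets called higher and the 94 called lower in WT mice, 1 point per probe set, with the median as a black bar. The WT values chose the probe sets, the medians of the rises are 1.14 in each genotype, and those of the falls are 0.05 in Notch3-/-, -0.56 in Notch4-/- and -0.68 in WT mice.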

How the data were processed

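Lung RNA of male mice (3 genotypes, each in air or after 6, 24 or 48 hr of ozone) was hybridized to 36 arrays. There were 3 arrays per group, each taken here as 1 mouse. The deposited log2 values were made by the authors, who normalized the arrays by robust multiarray averaging in GeneSpring. Each probe set was found to be centred on its median over the arrays (largest absolute median 5e-07), which the sources used here do not describe. The genome build and probe annotation used upstream are not given in the sources used here.

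No further normalization was applied. Means of the 12 groups were fitted over all 36 arrays with limma 3.58.1 in R 4.3.3 (lmFit, eBayes), p-values were adjusted over 45037 probe sets by the Benjamini-Hochberg method, and an adjusted p under 0.05 was called. The median SE of a WT difference was 0.139, and 3 mice per group limit the precision; an exact permutation test of 3 against 3 cannot go below p = 0.1. The study's figure legends give exposure in several groups of mice for its lavage and PCR measurements. No source used here ties an array to an exposure group, so exposure group could not be tested as a batch.

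Gene symbols came from the platform annotation, updated by gene ID to RefSeq (GRCm38.p6). Of the probe sets tested, 34945 had 1 symbol, of which 34741 matched, 932 had several and 9160 none. List counts used 1 probe set per gene, the most specific by suffix and then the lowest number. Named genes were the 20 largest rises and 20 largest falls without overlap between groups, up to 5 members of each list described (smallest p), some of the genes named in the study's text, and the 5 largest differences each way between genotypes. Other genes are marked as chosen after their values were seen or as named outside these rules. The latter include Cdc20, Bub1, Ndc80, Aurka, Plk1, Rrm1 and Rrm2. The members and lists were chosen with earlier results of these data known. Other settings tried were a second quantile normalization, centring of arrays, smaller sets of arrays, array weights, robust eBayes, the methods' ANOVA with Tukey's HSD, filters on probe sets, a replicate block and leaving out each mouse. The script was tested on simulated data.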

Additional observations from a re-analysis of the deposited data

Results flagged for a closer look

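The change from 24 to 48 hr of ozone differed between Notch3-/- and WT mice for 4 probe sets by limma's test of that difference, with Benjamini-Hochberg adjustment over 45037 probe sets. The part of genetic background cannot be told apart from that of the deletion.

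Hephaestin (Heph) changed by 0.17 in Notch3-/- mice and by -0.75 in WT mice, a difference of 0.92 (SE 0.15, adjusted p = 0.013). The Notch3-/- mice had -0.24, -0.13 and -0.41 after 48 hr, against -0.50, -0.38 and -0.42 after 24 hr, with overlap. In Notch4-/- mice the change was -0.18.

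A probe set of Bcl11b changed by 0.56 in Notch3-/- mice and by -0.89 in WT mice, a difference of 1.45 (SE 0.22, adjusted p = 0.013). The Notch3-/- mice had 0.18, 0.45 and 0.01 after 48 hr, against -0.22, -0.65 and -0.16 after 24 hr, without overlap. Other Bcl11b probe sets differed between these genotypes by 0.86, 0.36 and 0.79, and none of them passed.

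A probe set of Cdv3, a gene named for carnitine deficiency, changed by -0.72 in Notch3-/- mice and by 0.47 in WT mice, a difference of -1.19 (SE 0.20, adjusted p = 0.030). It was at -0.39, -0.04 and -0.18 in the 48 hr Notch3-/- mice, against 0.35, 0.31 and 0.87 in the 24 hr Notch3-/- mice. In the 48 hr WT mice it was at 0.44, 0.31 and 0.75, against 0.11, -0.03 and 0.01 in the 24 hr WT mice. Neither pair of groups overlapped, and the WT change on its own did not pass.

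A probe set with no gene symbol changed by 0.66 in Notch3-/- mice and by -0.40 in WT mice, a difference of 1.06 (SE 0.17, adjusted p = 0.013). The Notch3-/- mice had 0.21, 0.31 and 0.09 after 48 hr, against -0.46, -0.33 and -0.59 after 24 hr.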

How the results depend on the processing

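Against 238 probe sets called (144 higher, 94 lower), the 12 WT arrays alone gave 105 (83 and 22), the 6 arrays alone 56 (49 and 7), array weights 543 (283 and 260), the methods' ANOVA with Tukey's HSD 4 (3 and 1) and a minimum of 1 log2 90 (81 and 9). Quantile normalization gave 88 higher and 102 lower, of which 72 and 68 were among the calls reported. Centring arrays, robust eBayes and both filters on probe sets kept each count within 1.5 times. Leaving out 1 mouse gave 20 to 138 calls, 14 to 92 higher and 5 to 76 lower. The mitosis list (22 higher) gave 11 under quantile normalization, 0 under Tukey's HSD and 3 to 17 without 1 mouse, and the DNA replication list (6) gave 2 with the 6 arrays, 12 with array weights, 0 under Tukey's HSD and 0 to 4 without 1 mouse. The 4 probe sets that differed between Notch3-/- and WT became 17 under quantile normalization, 681 with array weights and 0 to 83 without 1 WT mouse.

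Of the WT rises as called in each setting, the share with a positive difference in Notch4-/- mice was 100% under quantile normalization, for the probe sets of higher SD and with the block, and 98.2 to 100% without 1 mouse, and in Notch3-/- mice 96.2 to 100%. For the WT falls the share with a negative difference was 26.2 to 66.7% in Notch3-/- and 83.3 to 100% in Notch4-/- mice without 1 mouse.

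With the replicate number within genotype as a block, 140 probe sets were higher, 61 lower and 0 differed between Notch3-/- and WT. Deviations of same-numbered 48 and 24 hr mice correlated at 0.20, -0.24 and -0.21 over probe sets, and not every mouse correlated best with its own number, so the numbers were not taken as pairs.

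Leaving out 1 mouse turned the sign of 5 genes with differences near 0, none of them called. Myd88 ran from -0.0094 to 0.15, Trim30a from -0.25 to 0.082, Notch2 from -0.059 to 0.058 (0.047 without 24 hr replicate 1), Notch4 from -0.10 to 0.061 (0.020 without 24 hr replicate 1) and Jag1 from -0.35 to 0.014. The cause of these changes was not tested. Fewer samples in a fit leave less information on the spread. As the values are centred, signal over background could not be read, and no filter on dim probe sets was possible.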
